A study of Mus musculus with 3 samples.

Results

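Interferon-responsive microglia were a small set of cells defined by RNAs that follow type I interferon signalling. They numbered 129 of 13312 microglia, with 50 of 5307 in the hCD33m library, 55 of 4791 in the hCD33M library and 24 of 3214 in the Control library. A microglial cell was chosen when its transcripts of 5 genes, Ifit1, Ifit2, Ifit3, Isg15 and Rtp4, came to at least 4 unique molecular identifiers (UMIs, each counting 1 captured RNA molecule) and to at least 0.1% of all its UMIs. Microglia were the cells with at least 0.15% of UMIs in P2ry12 and Tmem119 together and fewer than 5 UMIs of Mrc1, Pf4, Ms4a7 and F13a1, genes of border-associated macrophages (BAMs). Every other microglial cell of the same library is called remaining microglia (5257, 4736 and 3190 cells in hCD33m, hCD33M and Control).

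The cells came from the brains of mice 8 weeks old, sorted as CD11b+CD45lowCx3cr1+ and profiled by droplet scRNAseq in 3 libraries, 1 per genotype. The hCD33m sample was female and carried a transgene for the short human CD33 isoform, which lacks the sialic acid-binding domain. The hCD33M sample was male and carried the long isoform, which has that domain, and the Control sample was wild type and male. Per the study's methods, both transgenes sat in the Rosa26 locus behind a floxed stop with GFP, were switched on by Cx3cr1-Cre, and the hCD33m line came from 1 embryonic stem cell clone. Each genotype had 1 library, so differences between genotypes could not be tested, and genotype, animal, library and, for hCD33m, sex cannot be told apart. The labels and methods do not say for these libraries whether several mice were pooled. Since the same UMIs chose the cells, all contrasts with the remaining microglia are descriptions, and their 95% intervals cover counting error only.

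Type I interferons bind a receptor of IFNAR1 and IFNAR2, whose kinases JAK1 and TYK2 phosphorylate transcription factors that include STAT2. STAT2 and IRF9 are parts of a complex that binds the interferon-stimulated response element (ISRE) in promoters of interferon-stimulated genes (ISGs). The ISGs encode proteins that bind or destroy viral RNA, sensors that detect it, chemokines, and brakes on the pathway such as USP18 and SOCS1. In the brain, microglia with this set of RNAs are known from infection, ageing, demyelination and amyloid models, and a few are present in healthy brain.

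Sequences are shown for 8 genes used below, because they let the response element be read beside the RNA values. Each line holds 30 bases around the ISRE core nearest the gene's start, 5′ to 3′ on the gene's strand, from RefSeq promoters of build GRCm38.p6 that span 250 bases before to 50 bases after the start. Capitals mark the core, GAAANNGAAA or its reverse complement, and cores that touch it.
Ifit1: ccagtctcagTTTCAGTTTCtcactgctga
Ifit3: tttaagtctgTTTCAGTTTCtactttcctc
Isg15: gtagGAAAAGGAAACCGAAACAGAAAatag
Ifitm3: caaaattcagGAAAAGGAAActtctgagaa
Stat2: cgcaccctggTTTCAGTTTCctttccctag
Ddx58: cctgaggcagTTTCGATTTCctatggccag
Irgm1: gtttcaaGAAATAGAAACCGAAActgattc
Cxcl10: tcacgctttgGAAAGTGAAActtacctcac

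The stretches are those of Ifit1 at chr19:34640794-34640823 (plus strand), Ifit3 at chr19:34583397-34583426 (plus strand), Isg15 at chr4:156200871-156200900 (minus strand), Ifitm3 at chr7:141010723-141010752 (minus strand), Stat2 at chr10:128270266-128270295 (plus strand), Ddx58 at chr4:40239804-40239833 (minus strand), Irgm1 at chr11:48871428-48871457 (minus strand) and Cxcl10 at chr5:92349083-92349112 (minus strand). Both Ifit1 and Ifit3 held the same 10 core bases on the opposite strand, 75 and 112 bases before their starts. The stretch of Ifit3b, a near copy of Ifit3, was identical to that of Ifit3, and how reads were split between these near copies is uncertain. Isg15 ran 3 overlapping cores together and Irgm1 ran 2. No core was found in the Ifit2 window, which shows only that these letters are not in it, and Rtp4 was not matched to a promoter in the table.

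Over genes, the core was in 45 of the 90 ISG-list genes matched to a promoter (50%), against 3.99% of the 27025 genes with a promoter and 3.44% of all 32851 promoters. It was in 22 of the 56 matched genes (39.3%) that were at least 2-fold higher in these cells in every library (72 of 8215 genes compared, 0.876%), of which 5 of the 16 in no gene list held it (31.2%). Of 15 matched homeostatic microglial genes, 0 held it, and 15 genes are too few to set this apart from the 3.99% of all genes. The gamma-activated site TTCNNNGAA, which reads the same on both strands, was in 17 of the 90 ISG-list genes (18.9%), against 9.55% of genes and 8.30% of promoters. Over all 32851 promoters, this site overlapped an ISRE core in 24. These matches describe letters in a window and do not show that a factor was bound there.

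The chosen cells made up 0.942% of microglia in hCD33m (exact 95% Clopper-Pearson interval 0.700 to 1.24%), 1.15% in hCD33M (0.866 to 1.49%) and 0.747% in Control (0.479 to 1.11%). The ratio of shares over Control was 1.26 (0.761 to 2.15) for hCD33m and 1.54 (0.936 to 2.60) for hCD33M, and hCD33m over hCD33M gave 0.821 (0.548 to 1.23). These intervals cover the counting of cells within 1 library per genotype, and whether the genotypes differ in this share was not tested. The shares depended on the threshold, with 1.56, 1.82 and 1.28% in hCD33m, hCD33M and Control at a minimum of 0.05% and 0.471, 0.438 and 0.373% at 0.2%. Median depth was 5323.5 UMIs per interferon-responsive cell against 5134 per remaining cell in hCD33m, 5399 against 5082.5 in hCD33M, and 5483.5 against 5433.5 in Control. Mitochondrial UMIs had medians of 1.88% against 1.76% in hCD33m, 2.40% against 2.06% in hCD33M and 2.34% against 1.85% in Control, and their part in the results was not tested. Libraries shared 7 to 10 cell barcodes per pair, and no barcode was an interferon-responsive cell in more than 1 library. No doublet caller was run, and 2, 4 and 1 of the chosen cells of hCD33m, hCD33M and Control were among the 5% of cells with the most UMIs.

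**Figure D1:**
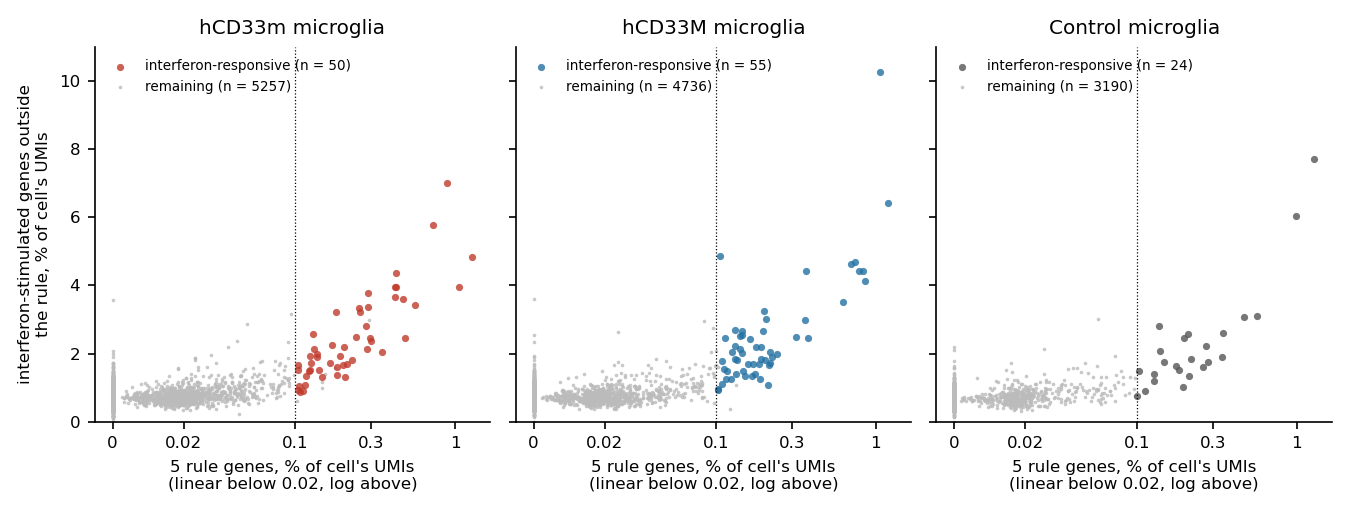
Each coloured point is 1 interferon-responsive microglial cell and each grey point 1 remaining microglial cell, by library, with its percent of UMIs in the 5 rule genes on the x axis (linear below 0.02, log above, dotted line at 0.1%) and in ISGs outside the rule on the y axis. The chosen cells reach 1.28% of UMIs in the rule genes in hCD33m, 1.19% in hCD33M and 1.28% in Control, and most lie above the bulk of the remaining cells on the y axis.

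The edge of the set was gradual. The chosen cells had a median of 11 rule UMIs in hCD33m (range 4 to 62), 11 in hCD33M (4 to 93) and 9.5 in Control (5 to 90), and the lowest shares inside were 0.103%, 0.102% and 0.1004% of UMIs. Just outside, 53, 42 and 24 cells of hCD33m, hCD33M and Control had 4 or more rule UMIs but under 0.1% of their total, with shares up to 0.0938%, 0.09997% and 0.0967%. No rule UMI was seen in 4312, 3916 and 2734 microglia of hCD33m, hCD33M and Control. The set is therefore a range of values cut at a threshold and not a separated group, with 18, 22 and 8 of its cells in hCD33m, hCD33M and Control under 0.15%. Conversely, 2, 1 and 0 remaining cells of hCD33m, hCD33M and Control reached 0.1% with 3 rule UMIs.

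The 5 rule genes are themselves ISGs. The IFIT proteins bind viral RNA and block its translation, ISG15 is a small protein joined to other proteins like ubiquitin, and RTP4 is a chaperone of membrane receptors. Ifit3 (chr19:34583531-34588731, plus strand, mm10) had 226, 252 and 152 UMIs in the interferon-responsive cells of hCD33m, hCD33M and Control, which gave 746, 755 and 1019 CPM (UMIs scaled to a sum of 1e6) against 6.65, 8.24 and 5.78 CPM in the remaining microglia. Isg15 (chr4:156199424-156200818, minus strand) had 822, 725 and 952 CPM in the interferon-responsive cells of hCD33m, hCD33M and Control, against 15.4, 14.0 and 9.49 CPM in the remaining microglia, and Rtp4 (chr16:23520291-23614222, plus strand) had 634, 555 and 549.7 CPM in the interferon-responsive cells of hCD33m, hCD33M and Control, against 23.4, 20.4 and 16.0 CPM in the remaining microglia. These high levels follow from the choice of cells and are no finding. Ifit1 was seen in 26, 29 and 13 of the 50, 55 and 24 cells of hCD33m, hCD33M and Control, Ifit2 in 29, 32 and 14, Ifit3 in 40, 46 and 23, Isg15 in 41, 46 and 23 and Rtp4 in 50, 52 and 21. All 5 were seen together in 46 of the 129 cells, 20 in hCD33m, 18 in hCD33M and 8 in Control, and 4 cells had only 1 of them.

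When each rule gene was read in cells chosen by the other 4 with the same minimums, its level stayed far above that of the cells not chosen. The log2 ratios were then 6.91, 6.94 and 7.80 for Ifit1 in hCD33m, hCD33M and Control, 6.78, 6.02 and 7.05 for Ifit2, and 6.75, 6.55 and 7.58 for Ifit3. In hCD33m, hCD33M and Control they were 5.61, 5.57 and 6.71 for Isg15 and 4.30, 4.41 and 4.75 for Rtp4. All 5 genes were put in the rule as ISGs, so these ratios describe the rule and give no separate support for the set. Ifit1, Ifit2 and Ifit3 lie together on chromosome 19, and their related sequences leave the split of reads uncertain. By the full rule, interferon-responsive cells held 53.4, 53.7 and 57.6 percent of all microglial Ifit3 UMIs in hCD33m, hCD33M and Control. In the same libraries they held 55.2, 64.6 and 67.6 percent of Ifit1 UMIs and 1.01, 1.25 and 0.764% of all microglial UMIs. Both genes chose the cells, so these parts follow from the choice and are no finding.

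The label was checked against its marker genes Ifit3, Isg15, Rtp4 and Cxcl10, and the first 3 belong to the rule. Cxcl10, which encodes the interferon-induced chemokine IP-10, was seen in 4 of 50, 4 of 55 and 1 of 24 interferon-responsive cells of hCD33m, hCD33M and Control. Its 105 UMIs in hCD33m included 101 from 1 cell, its 127 in hCD33M came mostly from 2 cells with 74 and 50, and its 16 in Control were all from 1 cell. Without the cell with the most, Cxcl10 stood at 13.7, 163 and 0 CPM in the interferon-responsive cells of hCD33m, hCD33M and Control, against 0.81, 0.911 and 1.86 CPM in the remaining microglia. After thinning to 2000 UMIs per cell, a Cxcl10 UMI was found in 4, 5.56 and 4.17% of interferon-responsive cells of hCD33m, hCD33M and Control, against 0.207, 0.112 and 0.133% of remaining microglia and 0 of 119, 98 and 76 cells with 5 or more BAM UMIs, where 3 cells of the total would be 2.52, 3.06 and 3.95%. Unthinned, the BAM-marker cells with a Cxcl10 UMI were 2 of 127 in hCD33m, 2 of 98 in hCD33M and 1 of 81 in Control. Most interferon-responsive cells therefore lacked detected Cxcl10 at this depth, and the name rests on the other markers.

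The microglial identity was also checked. P2ry12, a purinergic receptor, and Tmem119 are part of the definition of microglia here, and P2ry12 had 3016, 2695 and 2501 CPM in the interferon-responsive cells of hCD33m, hCD33M and Control, against 3479, 3383 and 3257 CPM in the remaining microglia. Sall1, a transcription factor of microglial identity outside the definition, had 393, 447 and 362 CPM in the interferon-responsive cells of hCD33m, hCD33M and Control, against 416, 461 and 433 CPM in the remaining microglia. BAM markers (7 genes, 4 of them in the definition) gave 4, 2 and 0 UMIs in the interferon-responsive cells of hCD33m, hCD33M and Control. Of 4 neutrophil and 8 lymphocyte markers, 2 and 1 were in the hCD33m counts and 0 in those of hCD33M and Control. They gave 0 UMIs in the hCD33m interferon-responsive cells, against 0.608 and 0.0675 CPM in the remaining microglia. At these levels their absence does not bear on identity. Across hCD33m, hCD33M and Control, dendritic cell markers gave 1, 1 and 2 UMIs, neuron and glia markers 13, 12 and 6, and endothelial, pericyte and choroid plexus markers 8, 8 and 1. Monocyte markers (6 genes) summed to 69.3, 45.0 and 13.4 CPM in the interferon-responsive cells of hCD33m, hCD33M and Control, against 12.9, 14.3 and 10.9 CPM in the remaining microglia. These were 21 UMIs in 12 cells of hCD33m, 15 in 7 cells of hCD33M and 2 in 1 cell of Control, of which Plac8 gave 15, 14 and 2 and Ccr2 gave 4, 0 and 0. Plac8 had 49.5, 41.96 and 13.4 CPM in the interferon-responsive cells of hCD33m, hCD33M and Control, against 1.55, 1.06 and 1.03 CPM in the remaining microglia. Ly6c2, Chil3 and Ace were at 0 in all 129 cells, and they were also at 0 to 0.361 CPM in the remaining microglia. Leaving out every cell with a monocyte-marker UMI left 65 genes at least 2-fold higher in every library, 63 of them among the 72 described next.

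Outside the rule genes, 8215 genes reached 10 CPM over all microglia of every library. The interferon-responsive cells were at least 2-fold higher for 164 of these genes in hCD33m (2.00%), 159 in hCD33M (1.94%) and 322 in Control (3.92%), and at least 2-fold lower for 545 (6.63%), 502 (6.11%) and 890 (10.8%). The sums behind these counts were 303065, 333624 and 149168 UMIs in the interferon-responsive cells of hCD33m, hCD33M and Control, and the shares past 2-fold were highest in Control, with the fewest cells. In every library, 72 genes were at least 2-fold higher (0.876%) and 10 were at least 2-fold lower (0.122%), while the count of higher genes was 160 with no CPM minimum and 19 with 50 CPM. Of the 72, 50 were in the ISG lists, 1 was Tap1 of antigen presentation and 21 were in no list. The minimum counts the chosen cells too, so a gene can pass it only through the cells where it is high. Examples were Gm4951 and Slfn5 in Control and Dhx58 in hCD33m, with 8.72, 9.49 and 9.62 CPM in the remaining microglia. For such genes, a place among the 72 gives no further support. The 10 lower genes (Klc4, Tcp11l2, Ulk3, Snap47, Lrwd1, Gpsm1, Zfp709, Zfp26, Slc17a9 and Rasal2) had 1 to 6 UMIs each in the interferon-responsive cells of any library.

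**Figure D2:**
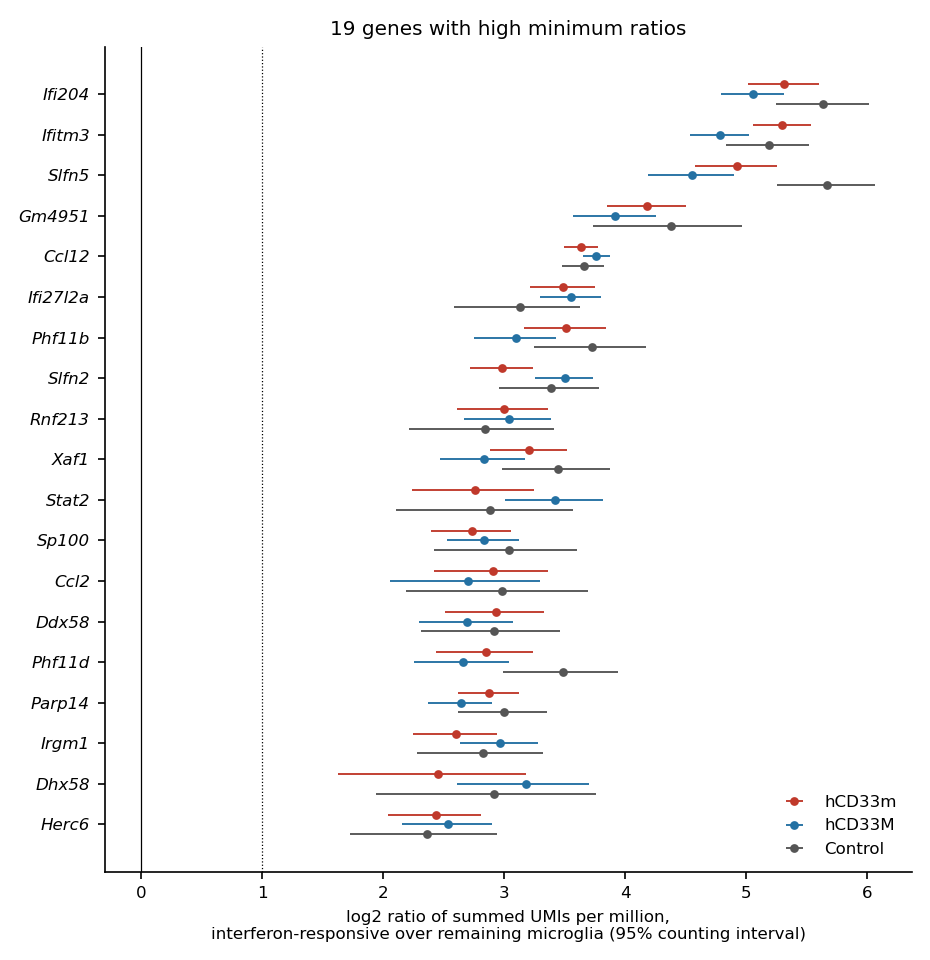
For 19 of the 20 genes with the highest lowest-library ratio, points give the log2 ratio of summed CPM in interferon-responsive cells over remaining microglia, 1 point per library, and bars give exact 95% counting intervals, with the dotted line at 2-fold. Ratios lie between 2.36 for Herc6 in Control and 5.67 for Slfn5 in Control, and all points are right of the dotted line.

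The highest ratio by the lowest of the 3 libraries was that of Ifi204 (chr1:173747293-173766943, minus strand), a mouse DNA sensor of the p200 family. It had 445, 528 and 529.6 CPM in the interferon-responsive cells of hCD33m, hCD33M and Control, against 11.2, 15.9 and 10.6 CPM in the remaining microglia, with log2 ratios of 5.31 (5.01 to 5.61), 5.06 (4.79 to 5.31) and 5.64 (5.25 to 6.02). Ifitm3 (chr7:141009586-141010770, minus strand), a membrane protein that blocks virus entry, had 657, 561 and 623 CPM in the interferon-responsive cells of hCD33m, hCD33M and Control, against 16.7, 20.4 and 17.1 CPM in the remaining microglia, with log2 ratios of 5.30 (5.05 to 5.54), 4.78 (4.53 to 5.02) and 5.19 (4.84 to 5.52). Slfn5, a Schlafen family protein, had 320.1, 261 and 483 CPM in the interferon-responsive cells of hCD33m, hCD33M and Control, against 10.5, 11.1 and 9.49 CPM in the remaining microglia. For all 3 genes, summed CPM was higher in the interferon-responsive cells of every library than in the remaining microglia of every library. The genes were picked by these ratios, so this describes the choice. Single cells overlapped, with up to 19, 20 and 18 Ifitm3 UMIs in a remaining cell of hCD33m, hCD33M and Control.

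Detection showed the same contrast cell by cell. At 2000 UMIs per cell, Ifitm3 was found in 54, 59.3 and 58.3% of the interferon-responsive cells of hCD33m, hCD33M and Control, against 2.18, 2.91 and 2.29% of remaining microglia. In hCD33m, hCD33M and Control, cells with 5 or more BAM UMIs, which are deeper (median 9920, 8576.5 and 10474 UMIs), had Ifitm3 in 37.8, 55.1 and 34.2% at the same thinned depth, so Ifitm3 is not particular to these microglia. In hCD33m, hCD33M and Control, Ifi204 was found in 34, 59.3 and 54.2% of thinned interferon-responsive cells, against 2.14, 2.801 and 1.83% of thinned remaining microglia and 18.5, 28.6 and 18.4% of thinned cells with BAM UMIs. Unthinned, in hCD33m, hCD33M and Control, Ifitm3 was seen in 70, 72.7 and 75% of interferon-responsive cells, against 5.38, 6.14 and 4.98% of remaining microglia. Thinning left out, in hCD33m, hCD33M and Control, 0, 1 and 0 interferon-responsive cells, 436, 273 and 181 remaining microglia and 8, 0 and 5 cells with BAM UMIs.

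Across 9 ISG lists with 125 genes outside the rule, 71 genes passed the 10 CPM minimum. At least 2-fold higher were 55 of them in hCD33m, 56 in hCD33M and 57 in Control, and 0 were at least 2-fold lower in any library. Their median log2 ratio was 1.83 in hCD33m, 1.71 in hCD33M and 1.98 in Control, beside -0.07, -0.09 and -0.08 over all 8215 genes. Summed over the lists, ISGs gave 23836, 24708 and 23812 CPM in the interferon-responsive cells of hCD33m, hCD33M and Control, against 7069, 7098 and 6695 CPM in the remaining microglia. Of the 54 listed genes below the minimum or not in the tables, 25, 26 and 17 had at least 10 UMIs in the interferon-responsive cells of hCD33m, hCD33M and Control, and all of those were at least 2-fold higher. They passed that count through the cells where they are high, so this gives no further support. Because the lists were built from known ISGs and the cells were chosen by ISGs, the shared direction describes the set and does not test it.

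**Figure D3:**
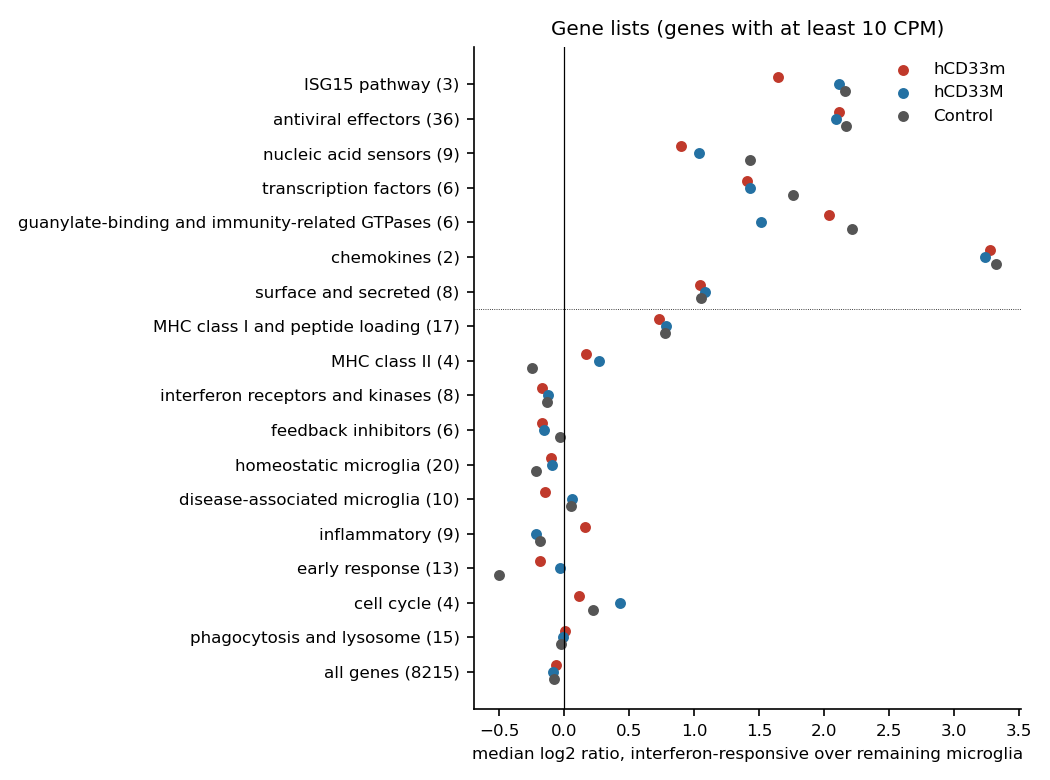
Points give each gene list's median log2 ratio of interferon-responsive cells over remaining microglia, 1 point per library, over the genes with at least 10 CPM (their number in brackets), with ISG lists above the dotted line. Antiviral effectors and chemokines have medians between 2.09 and 3.32, while homeostatic, receptor and lysosomal lists have medians between -0.22 and 0.00.

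Antiviral effectors were the longest list. Of 36 antiviral effectors that passed the minimum, 32, 33 and 33 were at least 2-fold higher in hCD33m, hCD33M and Control, with medians of 2.11, 2.09 and 2.17. The ISG Ifi27l2a had 422, 459 and 228 CPM in the interferon-responsive cells of hCD33m, hCD33M and Control, against 37.7, 39.1 and 26.1 CPM in the remaining microglia (log2 ratios 3.49, 3.55 and 3.13). Slfn2 had 449, 489 and 362 CPM in the interferon-responsive cells of hCD33m, hCD33M and Control, against 56.7, 43.2 and 34.7 CPM in the remaining microglia (log2 ratios 2.98, 3.50 and 3.38), and in the same libraries Phf11b had ratios of 3.51, 3.10 and 3.73 and its neighbour Phf11d 2.85, 2.66 and 3.48. Phf11b and Phf11d, like the Schlafen and Trim30 genes, have close copies, so their split of reads is uncertain. Further log2 ratios in hCD33m, hCD33M and Control were 3.21, 2.83 and 3.45 for Xaf1, 2.998, 3.04 and 2.85 for the ubiquitin ligase Rnf213, 2.74, 2.83 and 3.04 for the nuclear body protein Sp100 and 2.87, 2.64 and 2.996 for the ADP-ribosyltransferase Parp14.

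Several classic effectors were under the 10 CPM minimum over all microglia and had few UMIs in the remaining cells. Rsad2, which encodes viperin, had 145, 135 and 422 CPM in the interferon-responsive cells of hCD33m, hCD33M and Control, against 1.69, 1.75 and 0.619 CPM in the remaining microglia. Cmpk2, the gene beside it, had 56.1, 54.0 and 67.0 CPM in the interferon-responsive cells of hCD33m, hCD33M and Control, against 0.642, 0.835 and 0.516 CPM in the remaining microglia, and the GTPase Mx1 had 152, 129 and 275 CPM in the interferon-responsive cells of hCD33m, hCD33M and Control, against 3.31, 3.99 and 2.63 CPM in the remaining microglia. Ifit3b had 201, 171 and 342 CPM in the interferon-responsive cells of hCD33m, hCD33M and Control, against 0.506, 0.835 and 0.619 CPM in the remaining microglia, with reads that cannot be told from those of Ifit3 with certainty. Interferon-responsive cells held 46.8, 49.5 and 84.0 percent of the Rsad2 UMIs of microglia in hCD33m, hCD33M and Control. The ratios of genes this low describe where their few UMIs lay.

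The conjugation pathway of ISG15 and the OAS family both had members below the minimum. USP18 removes ISG15 and binds IFNAR2 to damp signalling, and Usp18 had 241, 239.8 and 208 CPM in the interferon-responsive cells of hCD33m, hCD33M and Control, against 5.27, 4.59 and 2.48 CPM in the remaining microglia (log2 ratios 5.52, 5.71 and 6.39). For hCD33m, hCD33M and Control, the ligase Herc6 had log2 ratios of 2.43, 2.54 and 2.36 and Trim25 1.65, 2.11 and 2.16, while Uba7, the ISG15-activating enzyme, had 1.12, 0.66 and -0.17. OAS proteins detect double-stranded RNA, and Oasl2, a member of that family, had 238, 339 and 147 CPM in the interferon-responsive cells of hCD33m, hCD33M and Control, against 4.96, 5.47 and 2.43 CPM in the remaining microglia.

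Among nucleic acid sensors, 4, 5 and 5 of 9 genes were at least 2-fold higher in hCD33m, hCD33M and Control (medians 0.90, 1.04 and 1.43). Besides Ifi204, these included, with log2 ratios in hCD33m, hCD33M and Control, the cytosolic RNA sensors Ddx58 (RIG-I, 2.93, 2.69 and 2.92), Ifih1 (MDA5, 2.68, 2.12 and 1.90) and Dhx58 (LGP2, 2.46, 3.18 and 2.92). Zbp1, a sensor of Z-form nucleic acids below the minimum, had 82.5, 126 and 134 CPM in the interferon-responsive cells of hCD33m, hCD33M and Control, against 1.22, 1.71 and 0.826 CPM in the remaining microglia. Tlr7, an endosomal RNA sensor, had log2 ratios of -0.03, 0.39 and 0.03 in hCD33m, hCD33M and Control, so not all sensors were past 2-fold.

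The transcription factors of the pathway differed in their ratios. Stat2, part of the complex that binds the ISRE, had 122, 179.8 and 121 CPM in the interferon-responsive cells of hCD33m, hCD33M and Control, against 17.997, 16.8 and 16.4 CPM in the remaining microglia (log2 ratios 2.76, 3.42 and 2.88), and in the same libraries Irf9 had log2 ratios of 1.08, 1.27 and 1.54. Irf1, a factor induced by interferons, had log2 ratios of 1.72, 1.58 and 1.98 in hCD33m, hCD33M and Control. Irf7, the factor that amplifies interferon transcription, had 158, 149.9 and 147 CPM in the interferon-responsive cells of hCD33m, hCD33M and Control, against 3.17, 2.51 and 2.53 CPM in the remaining microglia, although it was under the 10 CPM minimum. Irf8, a factor of the macrophage lineage, had log2 ratios of 0.06, 0.28 and 0.32 in hCD33m, hCD33M and Control, and Irf5 had -0.15, -0.21 and -0.08.

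Guanylate-binding proteins and immunity-related GTPases attack the membranes of intracellular microbes, and 5, 5 and 6 of their 6 genes past the minimum were at least 2-fold higher in hCD33m, hCD33M and Control. Irgm1 had 244, 267 and 228 CPM in the interferon-responsive cells of hCD33m, hCD33M and Control, against 40.1, 34.2 and 32.2 CPM in the remaining microglia (log2 ratios 2.60, 2.96 and 2.82). Across hCD33m, hCD33M and Control, Gbp5 had 30, 11 and 17 UMIs and log2 ratios of 3.002, 1.37 and 3.11, and Igtp had 43, 30 and 34 UMIs and ratios of 1.83, 1.18 and 2.55. Iigp1, below the minimum, had 69.3, 98.9 and 141 CPM in the interferon-responsive cells of hCD33m, hCD33M and Control, against 0.878, 0.607 and 0.619 CPM in the remaining microglia. These families have close copies, and their split of reads is uncertain.

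Chemokines of the monocyte-attracting group were unevenly spread over the cells. Ccl12 (chr11:82101845-82103400, plus strand), a mouse CCR2 ligand, had 443, 740 and 295 UMIs and 1462, 2218 and 1978 CPM in the interferon-responsive cells of hCD33m, hCD33M and Control, against 118, 163 and 157 CPM in the remaining microglia, with log2 ratios of 3.64 (3.49 to 3.78), 3.76 (3.65 to 3.88) and 3.66 (3.48 to 3.83). It was seen in 43, 44 and 15 of the 50, 55 and 24 cells of hCD33m, hCD33M and Control, against 33.9, 42.0 and 44.3% of remaining microglia, and single cells held up to 66, 233 and 82 UMIs. Ccl2 had 139, 74.9 and 114 CPM in the interferon-responsive cells of hCD33m, hCD33M and Control, against 18.4, 11.5 and 14.4 CPM in the remaining microglia, and was seen in 10, 10 and 7 cells. In hCD33m 1 cell held 19 of its 42 UMIs, and without that cell Ccl2 stood at 78.7 CPM. Ccl5 gave 16 UMIs in 1 hCD33m cell, 4 UMIs in hCD33M and 0 in Control. Any UMI of the chemokine list was found in 43 of 50, 45 of 55 and 15 of 24 cells of hCD33m, hCD33M and Control, so chemokine RNA was common but concentrated in few cells.

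**Figure D4:**
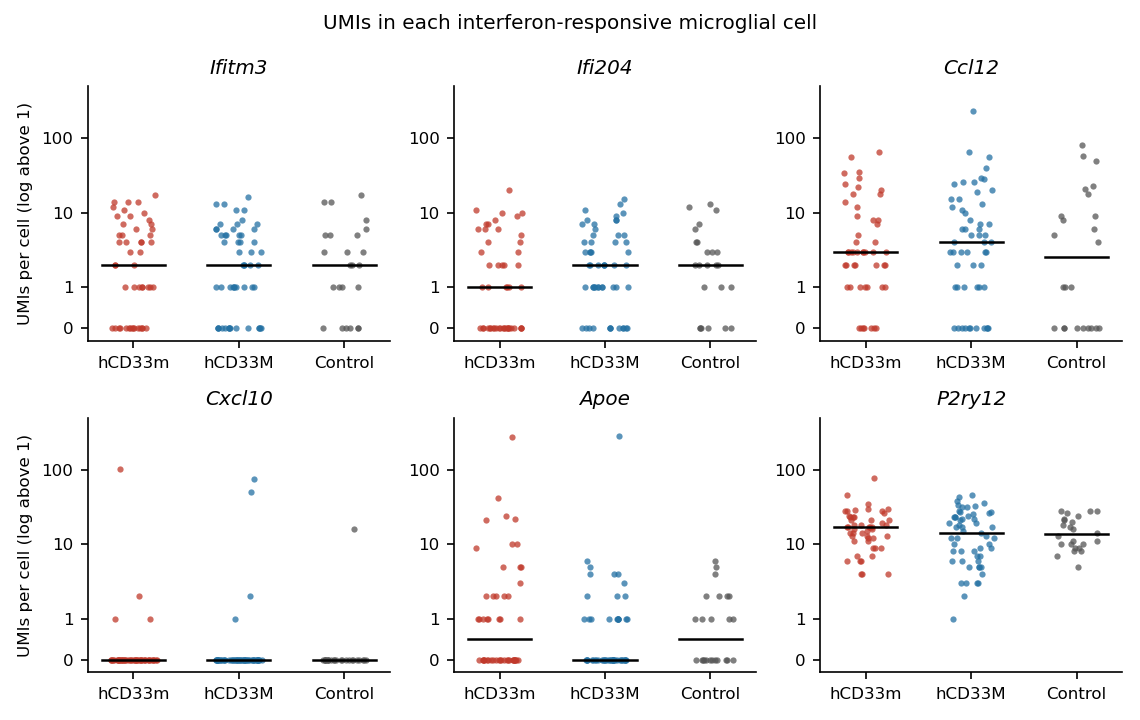
Each point is 1 interferon-responsive cell, by library, with its UMIs of Ifitm3, Ifi204, Ccl12, Cxcl10, Apoe or P2ry12 on an axis that is logarithmic above 1, and the line is the median. Cxcl10 is at 0 in all but 4, 4 and 1 cells of hCD33m, hCD33M and Control, single cells reach 276 and 285 Apoe UMIs in hCD33m and hCD33M, and P2ry12 is present throughout.

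Surface and secreted ISGs and antigen presentation genes were higher by smaller ratios. Of 8 surface or secreted ISGs, 5 were at least 2-fold higher in each library, among them Ly6e with 2504, 2482 and 2299 CPM in the interferon-responsive cells of hCD33m, hCD33M and Control, against 1210.3, 1152 and 1108 CPM in the remaining microglia, and the Fc receptors Fcgr1 and Fcgr4 with log2 ratios of 1.15, 1.35 and 1.33 and 1.47, 1.60 and 2.46. Without the cell with the most Fcgr4 UMIs, the Fcgr4 ratios were 0.88 in hCD33m, 1.01 in hCD33M and 2.19 in Control. In the MHC class I list, 3, 3 and 6 of 17 genes were at least 2-fold higher in hCD33m, hCD33M and Control, and the medians were 0.73, 0.78 and 0.78. The peptide transporter Tap1 had log2 ratios of 1.40, 2.01 and 1.56 in hCD33m, hCD33M and Control, H2-T23 had 0.89, 0.97 and 1.22, and B2m, the light chain of class I, had 0.33, 0.56 and 0.53. Class I heavy chain genes resemble each other, so reads may be shared among them. MHC class II medians in hCD33m, hCD33M and Control were 0.17, 0.27 and -0.24 over 4 genes, with Cd74 at 0.41, 0.68 and -1.36. In hCD33M 1 cell held 16 of the 36 Cd74 UMIs, and without the cell with the most the Cd74 ratios were -0.04 in hCD33m, -0.13 in hCD33M and -2.83 in Control.

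Genes upstream of the response had list medians near 0. The 8 interferon receptor and kinase genes had medians of -0.17, -0.12 and -0.13 in hCD33m, hCD33M and Control, with 0 genes at least 2-fold higher in any library and 1, 0 and 1 at least 2-fold lower. Ifnar1 had 62.7, 71.9 and 87.2 CPM in the interferon-responsive cells of hCD33m, hCD33M and Control, against 80.7, 83.0 and 72.5 CPM in the remaining microglia, and Ifnar2 had log2 ratios of 0.23, 0.20 and 0.03. The interferon genes themselves were not analysed here. Feedback inhibitors past the minimum (6 genes) had medians of -0.17, -0.16 and -0.03 in hCD33m, hCD33M and Control, and Socs3, an inhibitor of cytokine signalling, had 12, 10 and 1 UMIs. Socs1, an interferon-induced inhibitor of JAK kinases that was below the minimum, had 36.3, 54.0 and 60.3 CPM in the interferon-responsive cells of hCD33m, hCD33M and Control, against 10.2, 7.97 and 8.98 CPM in the remaining microglia (log2 ratios 1.83, 2.76 and 2.75).

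Lists of microglial state genes outside the interferon response had medians between -0.50 and 0.43 over genes past the 10 CPM minimum. None of those genes was at least 2-fold higher in every library, while with a minimum of 5 CPM 1 disease-associated gene was. The 20 homeostatic genes had medians of -0.10, -0.10 and -0.22 in hCD33m, hCD33M and Control, with Cst3 at -0.13, -0.09 and -0.0007. Of the 20, only 3, 2 and 2 had ratios above 0 in hCD33m, hCD33M and Control, so most were lower in each library. Over all 8215 genes, 3573, 3408 and 3417 were above 0. Without the cell with the most Fcrls UMIs, Fcrls had -0.26, -0.48 and -0.60 in hCD33m, hCD33M and Control. Over hCD33m, hCD33M and Control, the 15 phagocytosis and lysosome genes had medians of 0.00, -0.01 and -0.02, and 10 disease-associated genes had -0.15, 0.06 and 0.05. Of these 10, 2, 3 and 1 were at least 2-fold higher, beside 2.00, 1.94 and 3.92% of all genes. At least 2-fold lower were 0, 0 and 2, beside 6.63, 6.11 and 10.8% of all genes. In the same libraries, inflammatory genes (9) gave 0.16, -0.22 and -0.19, and cell cycle genes (4) gave 0.11, 0.43 and 0.22. Early response genes (13), which include Fos and Jun, had medians of -0.19, -0.03 and -0.50 in hCD33m, hCD33M and Control.

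A few genes of these lists were set by single cells. Apoe, a lipid carrier that is high in activated microglia and in BAMs, had 450, 328 and 28 UMIs in the interferon-responsive cells of hCD33m, hCD33M and Control and log2 ratios of 1.04, 1.24 and -1.37. In hCD33m 1 cell held 276 of the UMIs and in hCD33M 1 cell held 285, and without those cells the ratios were -0.30 in hCD33m and -1.63 in hCD33M. Ccl4 had 4, 7 and 35 UMIs in hCD33m, hCD33M and Control, of which 1 Control cell held 23, and without it the Control ratio was 0.28.

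Of the 21 genes at least 2-fold higher in every library and in no list, the highest was Gm4951, a member of the interferon-inducible GTPase family. It had 307, 261 and 181 CPM in the interferon-responsive cells of hCD33m, hCD33M and Control, against 16.9, 17.2 and 8.72 CPM in the remaining microglia, with log2 ratios of 4.18, 3.92 and 4.38. In Control, Gm4951 passed the 10 CPM minimum only through the interferon-responsive cells. Others were Sdc3, Clec2d, Sass6, Nampt, Gdap10, Ncoa7, Adar, Trim14, Ogfr, 1600014C10Rik, Sap30, Daxx, Trim12c, Tmem106a, Gm46224, Tspo, Map3k8, Ppa1 and Pcgf5. Adar encodes an RNA-editing enzyme with an interferon-induced form, Nampt an enzyme of NAD synthesis, Sdc3 a heparan sulfate proteoglycan and Tspo a mitochondrial outer membrane protein. These genes were picked by their values, so no test of the group was made.

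Within the set, ISG levels were graded by rule UMIs. The same UMIs chose the cells, so this is a description and no test. In hCD33m, ISGs outside the rule summed to 16497 CPM in the 23 cells with 4 to 9 rule UMIs, 22930.2 CPM in the 14 cells with 10 to 19 and 32878 CPM in the 13 cells with 20 or more. In hCD33M the sums were 18185, 19812 and 40621 CPM over 24, 18 and 13 cells, and in Control they were 16162, 18435 and 36372 CPM over 12, 6 and 6 cells. At the last step in hCD33M, 1 cell gave 896 of the 3528 ISG UMIs. Median depth over the same steps was 4751, 5585 and 6623 UMIs in hCD33m and 4305.5, 7034.5 and 5763 in hCD33M. In Control it was 4763.5, 5522.5 and 7440.5 UMIs, and the part of depth in the grading was not tested. Ifitm3 was graded likewise, with 333, 672 and 1005 CPM in hCD33m, 289.8, 515 and 967 CPM in hCD33M and 283, 787 and 898 CPM in Control. Ccl12 did not follow each step, with 963, 923 and 5849 CPM in hCD33M. Per cell, 45 of 50, 53 of 55 and 22 of 24 interferon-responsive cells of hCD33m, hCD33M and Control had ISG levels above the 95th percentile of the remaining microglia.

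The same gradient reached into the remaining microglia. In hCD33m their ISG sums were 6816, 7319, 8374 and 8690 CPM at 0, 1, 2 and 3 rule UMIs, and 10422 CPM in the 53 cells with 4 or more rule UMIs under 0.1%. The matching sums were 6874, 7294, 7989 and 9199 CPM, then 11580.1 CPM, in hCD33M, and 6487, 7048, 7944 and 8991 CPM, then 10595 CPM, in Control. Median depth was higher along the same steps in hCD33m, with 5017.5 UMIs at 0 rule UMIs and 8228 in the last group, and its part in the gradient was not tested. In hCD33m, hCD33M and Control, 7, 7 and 6 remaining cells had ISG levels above the median of the interferon-responsive cells.

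Between genotypes, the question is whether the interferon-responsive cells of hCD33m or hCD33M differed from those of Control. Over the 71 ISGs, the median log2 ratio was 0.07 for hCD33m over Control, 0.15 for hCD33M over Control and 0.01 for hCD33m over hCD33M. In the remaining microglia of the same libraries these medians were 0.12, 0.11 and -0.01 for the same pairs. At least 2-fold higher in the interferon-responsive cells were 3 ISGs for hCD33m over Control and 2 for hCD33M over Control, with 1 and 3 lower. Over all genes tested, 877 (10.7%) were at least 2-fold higher and 867 (10.6%) lower for hCD33m over Control, and 951 (11.6%) higher and 738 (8.98%) lower for hCD33M over Control. In the remaining microglia, which hold far more UMIs, 7 genes (0.0852%) were higher and 5 (0.0609%) lower for hCD33m over Control, and 3 (0.0365%) higher and 2 (0.0243%) lower for hCD33M over Control. Both pairs share the 24 Control cells.

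**Figure D5:**
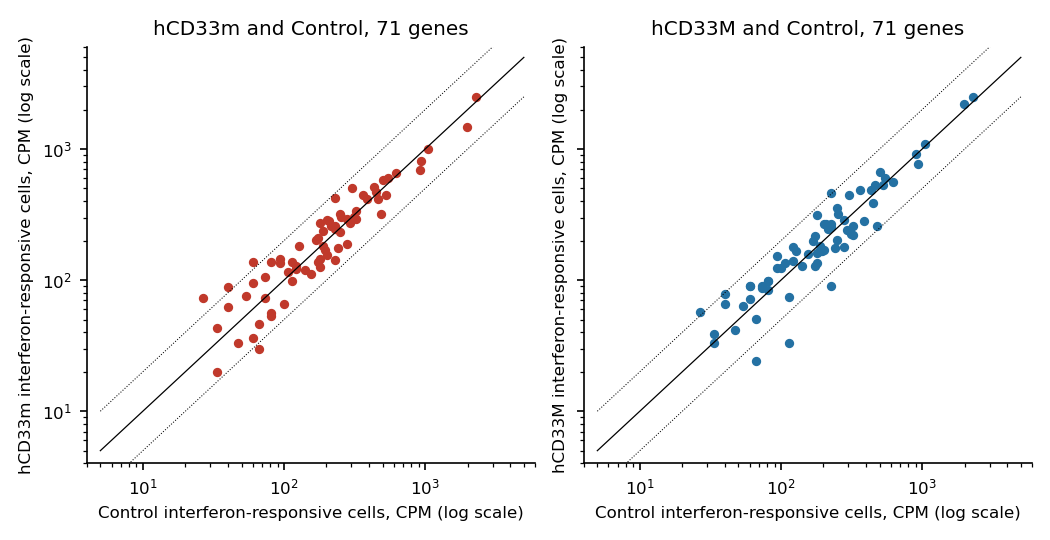
Each point is 1 of 71 ISGs, with its summed CPM in the interferon-responsive cells of hCD33m (left) or hCD33M (right) on the y axis and of Control on the x axis, both logarithmic. The solid line marks equal levels and dotted lines 2-fold, beyond which lie 4 genes on the left and 5 on the right.

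The rule genes chose the cells, so their levels between genotypes are a description only. For hCD33m over Control, log2 ratios in the interferon-responsive cells were -0.45 (-0.75 to -0.14) for Ifit3, -0.21 (-0.52 to 0.10) for Isg15 and 0.20 (-0.18 to 0.60) for Rtp4. For hCD33M over Control they were -0.43 (-0.73 to -0.13), -0.39 (-0.70 to -0.08) and 0.01 (-0.37 to 0.41). Rsad2 had 44, 45 and 63 UMIs in hCD33m, hCD33M and Control and log2 ratios of -1.54 (-2.13 to -0.96) for hCD33m over Control and -1.65 (-2.23 to -1.07) for hCD33M over Control. Gbp5 and Igtp were lower in hCD33M than in Control, with -1.79 (-3.03 to -0.61) and -1.34 (-2.10 to -0.59). However, 1 Control cell held 12 of the 17 Gbp5 UMIs, and without the top cell of each library the hCD33M cells had 27.6 CPM of Gbp5 and the Control cells 34.98 CPM (log2 ratio -0.34, -2.08 to 1.58). The same step gave Igtp a ratio of -1.19 (-2.02 to -0.37). It gave Rsad2, of which 1 Control cell held 27 UMIs and 1 hCD33M cell 22, ratios of -1.02 (-1.72 to -0.32) for hCD33m over Control and -1.83 (-2.65 to -1.04) for hCD33M over Control. The intervals cover counting error and not the difference between mice.

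Of the genes with the highest and lowest ratios between genotypes, most had few UMIs. Highest for hCD33m over Control were Apoe, Csad, Ppp4r3b, Ccdc59 and Ncbp3, and lowest were Gm26870, Ccl4, Gripap1, Vta1 and Cdkn1a. Gm26870, a long noncoding RNA, had 21 UMIs in 1 Control cell. Cdkn1a, a cell cycle inhibitor, had 9, 6 and 16 UMIs and 29.7, 17.984 and 107 CPM in hCD33m, hCD33M and Control. Highest for hCD33M over Control were Ccdc59, Cd74, Apoe, Nop56 and Plekha2, and lowest were Copz1, Ccl4, Gm26870, Cdkn1a and Ccl3. Early response genes had a median log2 ratio of 0.99 for hCD33m over Control in the interferon-responsive cells and 0.45 in the remaining microglia, with 12 of 13 genes above 0 in both. At least 2-fold higher were 6 of the 13 in the interferon-responsive cells, beside 10.7% of all genes there, and 4 of the 13 in the remaining microglia, beside 0.0852%. The study reported several of these genes, among them Fos and Klf2, as higher in hCD33m, also in its second experiment, which gave these libraries. The direction was therefore known in advance. Control interferon-responsive cells had 9 Fos UMIs (6 in 1 cell), 4 of Fosb and 3 of Klf2, while Junb had 63.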

How the data were processed

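Droplet scRNAseq counts of 3 libraries (hCD33m, hCD33M and Control, 1 each) were used. The authors deposited raw counts (UMIs per gene and barcode), obtained by alignment to mm10 in Cell Ranger and import into Seurat. No source used here names the annotation release. The study's methods describe inhibitors of transcription and translation during cell isolation, which bears on rapidly induced RNAs. Reads were aligned to the mouse genome, so the human transgene RNA was not analysed here.

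Barcodes with over 200 and under 8000 genes and at most 10% mitochondrial UMIs were kept, which left 5612 of 5707, 5046 of 5100 and 3412 of 3482 barcodes and microglial totals of 29919957, 26676577 and 19528575 UMIs in hCD33m, hCD33M and Control. UMIs were summed over cells and scaled to CPM. Log2 ratios carry exact conditional binomial 95% intervals, and a sum of 0 was set to 3 counts. Shares carry Clopper-Pearson intervals. Cells were thinned to 2000 UMIs to compare detection. Genes needed 10 CPM over all microglia of every library, and the threshold was 2-fold. No p-value was computed. Procedures were tested on simulated data.

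The members, gene lists and rules were chosen with earlier results of these data known. Named genes were the rule genes and Cxcl10, the 20 highest and 10 lowest ratios by their least extreme library, up to 4 highest and 4 lowest of each list, and the 5 highest and 5 lowest between genotypes with at least 100 CPM. Genes under 10 CPM over all microglia, cell type markers and the further genes of the every-library set were named after their values were seen. A few genes are not reported here. Alternatives varied the rule, depth, cell filter, scaling (TMM from edgeR 4.0.16, median-of-ratios factors from DESeq2 1.42.0) and CPM minimum. Alternatives chosen after seeing the data left out the cell with the most UMIs of a gene, left out cells with a monocyte-marker UMI, or kept cells with 10 or more rule UMIs. Gene coordinates came from GENCODE vM21 on mm10. Computation used R 4.3.3 and, in Python 3.11.15, scipy 1.17.1, pandas 2.3.3 and numpy 2.4.6.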

Additional observations from a re-analysis of the deposited data

Results flagged for a closer look

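Several genes had ratios of interferon-responsive over remaining microglia with opposite signs in 2 libraries, and none of these differences was tested, since each genotype has 1 library. Apoe had log2 ratios of 1.04 in hCD33m and 1.24 in hCD33M, against -1.37 in Control, and the first 2 values turned negative without the single cell with the most Apoe UMIs. Ccl4 had -1.96 in hCD33m and -1.29 in hCD33M, against 1.66 in Control, where 1 cell held 23 of its 35 UMIs. The remaining genes had few UMIs. Ppp4r3b, a phosphatase subunit, had 0.65 in hCD33m against -2.06 in Control, and Gripap1 had -1.06 in hCD33m against 0.98 in Control. For hCD33M against Control, Ccdc59 had 0.54 against -2.19, the nucleolar gene Nop56 had 0.74 against -1.27, and the coat protein gene Copz1 had -2.51 against 1.12.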

How the results depend on the processing

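No paired analysis was possible because each genotype has 1 library. Of the summary results, 77 alternative values kept their direction and size and 15 moved. Requiring at least 0.05% of UMIs in the rule genes gave shares of 1.56% in hCD33m, 1.82% in hCD33M and 1.28% in Control, and 0.2% gave 0.471, 0.438 and 0.373% and an ISG median of 2.41 in hCD33M. Applying the rule after thinning to 4000 UMIs chose 46 of 4046 microglia in hCD33m, 55 of 3697 in hCD33M and 30 of 2659 in Control (1.13% in Control). Cells with fewer UMIs were left out, so these shares are to be compared only with each other. With no CPM minimum, 160 genes were at least 2-fold higher in every library and the ISG medians were 2.505, 2.54 and 2.76 in hCD33m, hCD33M and Control; with 50 CPM the count was 19, all among the 72, and the medians 1.28 in hCD33m and 1.19 in hCD33M. The share of microglia that are interferon-responsive is thus set by the threshold, and ISG medians stayed between 1.19 and 2.76 in all alternatives run. TMM factors gave 72 genes and median-of-ratios factors 82. The 20 highest genes stayed at least 2-fold higher in 840 of 840 alternative values. They were picked by these ratios and the alternatives reuse most of the same cells, so this is no separate support.

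Of 495 single-gene ratios, 342 kept their sign in every alternative run and 153 did not. Among these, 26 alternative values had the opposite sign to a ratio of at least 2-fold; the cause was not tested unless stated. With at least 6 rule UMIs these were Lpl (-0.34) and Gm26870 (-0.41) in hCD33M. At 0.05% they were Lrwd1 in hCD33M (0.10), Jak2 in hCD33m (0.31), and Socs3 (0.017) and Lpl (0.56) in Control, and at 0.2% Apoe in hCD33M (-2.47). With the rule applied after thinning to 4000 UMIs they were Snap47 (0.20), Gpsm1 (0.064) and Gm26870 (-0.58) in hCD33M and Zfp709 in hCD33m (0.0076). With cells thinned to 2000 UMIs they were Klc4 (0.14) and Slc17a9 (0.021) in hCD33m, Snap47 in hCD33M (0.67), Zfp26 (0.33) and Jak2 (0.22) in Control, Ppp4r3b (-0.17) and Ncbp3 (-0.17) for hCD33M over Control, and Nop56 for hCD33m over Control (-1.06). With the stricter cell filter it was Gm26870 in hCD33M (-0.20). With the 5% of cells with the most UMIs left out they were Apoe in hCD33M (-1.61) and Apoe for hCD33M over Control (-0.45). Without the single cell with the most UMIs of the gene they were Apoe in hCD33m (-0.30), in hCD33M (-1.63) and for hCD33M over Control (-0.25) and Gm26870 in hCD33M (-0.45), where the construction itself shows that 1 cell set the value. With 24 Control cells, genes with few UMIs are not resolved at this depth.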
